A study of Homo sapiens with 8 samples.

Results

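The heavy chain genes HLA-B, HLA-C, HLA-E, HLA-F and HLA-G, the light chain gene B2M and the transactivator gene NLRC5 were followed through loss of IRF2 in K562 cells. These 7 genes were taken by name from the 35805 listed genes, with earlier results of these data known. Of the 7, 3 (HLA-C, HLA-E and B2M) had enough signal to be tested. The HLA-C row, with few reads, fell with both IRF2 guides. HLA-E and B2M, which carried nearly all of the class I reads seen here, differed from the control guide by little. HLA-B had too few reads to enter the test and was lowest with the IRF2 guides. NLRC5 was near its detection limit, and HLA-F and HLA-G had no read in any library.

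MHC class I molecules show peptides from inside the cell to CD8 T cells. Each is a heavy chain that pairs with B2M (beta-2-microglobulin) and is loaded with a peptide that the TAP transporter brings into the endoplasmic reticulum. HLA-B and HLA-C are classical heavy chains that present to T cells, HLA-E and HLA-G are ligands of receptors on natural killer cells, and HLA-F is a further nonclassical chain. NLRC5 is recruited to class I promoters through factors bound at a conserved X and Y box module, next to elements for NF-kB and for interferon regulatory factors. IRF2 is one of the interferon regulatory factors. K562, an erythroid-like line from a chronic myeloid leukaemia, is known for low surface class I and is a common target of natural killer cells.

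All 4 groups were K562 cells with dCas9-KRAB, a dead Cas9 joined to a repressor domain, which silences the promoter that a guide RNA points to. The groups, with 2 RNA-seq libraries each, were cells with the guide sg1-IRF2, cells with the guide sg2-IRF2, cells with the control guide sgAAVS1 and untransduced cells. RNA of guide-bearing cells was taken 7 days after transduction. The labels give neither the clonal origin of the cells nor separate cultures for the 2 libraries of a group, so p-values measure the spread between these libraries, which may be technical.

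The libraries held 5248359 to 6738348 reads over the listed genes. IRF2, the targeted gene, was represented by 4 and 8 reads in sg1-IRF2 cells and by 22 and 21 reads in sg2-IRF2 cells, against 196 and 291 reads with sgAAVS1 and 271 and 268 reads in untransduced cells. All 10 of the K562 marker genes had at least 94 reads in every library, and none was called in the main comparison (limma, 0 at an unadjusted p under 0.05). Of the lymphoid markers 4 of 6 had at most 5 reads in every library, and MS4A1 and CD2 were at 0 throughout. Of the myeloid markers 2 of 5 had at most 5 reads. Their summed levels ran from 84.7 to 97.8 and from 142 to 155 RPM over all libraries, where RPM is reads scaled to a library sum of 1000000. Of 6 markers of adherent lines, all expressed here at 724 to 774 RPM in sum with the IRF2 guides and 718 to 802 RPM with sgAAVS1, COL1A1 was called lower (log2 difference -0.32 ± 0.08 (SE), adjusted p = 0.033). COL1A2 differed by -0.55 ± 0.16 and was not called (adjusted p = 0.081), but was called lower for both guides against untransduced cells (-0.86 ± 0.16, adjusted p = 0.0013). Their part in the results below was not tested.

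Levels set the scale of every later comparison. In RPM divided by the kilobases of annotated exon, HLA-E stood at 35.4 ± 0.32 with sg1-IRF2, 37.0 ± 0.79 with sg2-IRF2, 39.2 ± 2.0 with sgAAVS1 and 39.1 ± 1.2 in untransduced cells (SD, n = 2 each). That was above 94.6% to 96.1% of 18480 protein-coding genes in all 4 groups. B2M, on the same per-length scale, lay between 16.0 and 16.8 as group means, above 76.0% to 77.4% of protein-coding genes. The annotated exons of B2M, pooled over its transcripts, span 6079 bases, whereas its longest coding transcript has 1705 bases. Over the longest coding transcript B2M gave 53.4 to 61.7 on the same scale and HLA-E gave 40.3 to 46.4, so which of the pair is higher depends on the length used. HLA-C reached 0.20 ± 0.11 with sg1-IRF2, 0.32 ± 0.19 with sg2-IRF2, 1.28 ± 0.62 with sgAAVS1 and 1.49 ± 0.14 in untransduced cells on the exon scale. HLA-B was at most 0.68 and NLRC5 at most 0.038 as a group mean on that scale. In untransduced cells, its highest group, HLA-C stood above 44.6% of protein-coding genes and HLA-B above 41.1%.

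HLA-C was the 1 member of the 3 tested that passed, and HLA-B, under the minimum for the test, follows it. The HLA-C row held 4 and 2 reads in sg1-IRF2 cells, 3 and 7 reads in sg2-IRF2 cells, against 11 and 29 reads with sgAAVS1 and 25 and 22 reads in untransduced cells. All 4 IRF2-guide libraries lay below all 4 control libraries, and in reads the sgAAVS1 libraries differed most from each other. On the deposited log2 scale the group values were -0.86 ± 0.80 with sg1-IRF2, -0.32 ± 0.92 with sg2-IRF2, 1.79 ± 0.72 with sgAAVS1 and 2.07 ± 0.10 in untransduced cells (SD, n = 2 each). The 2 guides together were lower than sgAAVS1, by a log2 difference of -2.38 ± 0.45 (SE, 95% interval -3.31 to -1.46), a 5.22-fold fall (limma, adjusted p = 0.0025 over 14665 genes). HLA-C was the 1 called member of 3 tested in this comparison, in which 1.59% of all tested genes were called and 1.1% were called lower. Its mean log2 of 0.67 over all libraries met the minimum of 0 for the test only through the control groups. Both IRF2-guide group values lay under that minimum, so HLA-C entered the test because of the groups in which it was high. In bulk RNA, fewer cells with the transcript and less transcript per cell cannot be told apart.

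The few reads limit this result. After scaling to library size, 16 reads with the IRF2 guides against 40 with sgAAVS1 give a ratio of 0.194 (95% interval 0.101 to 0.354, for counting error only). Without the mean-variance trend of the fit the adjusted p was 0.248, and without the second sgAAVS1 library, the one with 29 reads, the log2 difference was -1.88 with an adjusted p of 0.0625.

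With each guide alone HLA-C was also called, as the 1 member of 3. The log2 difference from sgAAVS1 was -2.65 ± 0.52 (SE) with sg1-IRF2 (adjusted p = 0.0050), where 0.825% of all tested genes were called. It was -2.11 ± 0.52 with sg2-IRF2 (adjusted p = 0.012), where 8.16% were called, or 1196 genes, against 500 with library medians aligned. Each call was lost without the second sgAAVS1 library (adjusted p = 0.0670 for sg1-IRF2 cells, 0.0839 for sg2-IRF2 cells). The call with sg1-IRF2 was also lost without its own second library (adjusted p = 0.113), and that with sg2-IRF2 without its own first library (adjusted p = 0.184). Set against untransduced cells, both guides gave a HLA-C log2 difference of -2.66 ± 0.45 (adjusted p = 5.7e-04), and 2.5% of all tested genes were called there. Leaving out the first or the second untransduced library ended that call (adjusted p = 0.0784 and 0.0594). This comparison shares the IRF2-guide libraries with the one against sgAAVS1.

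**Figure D1:**
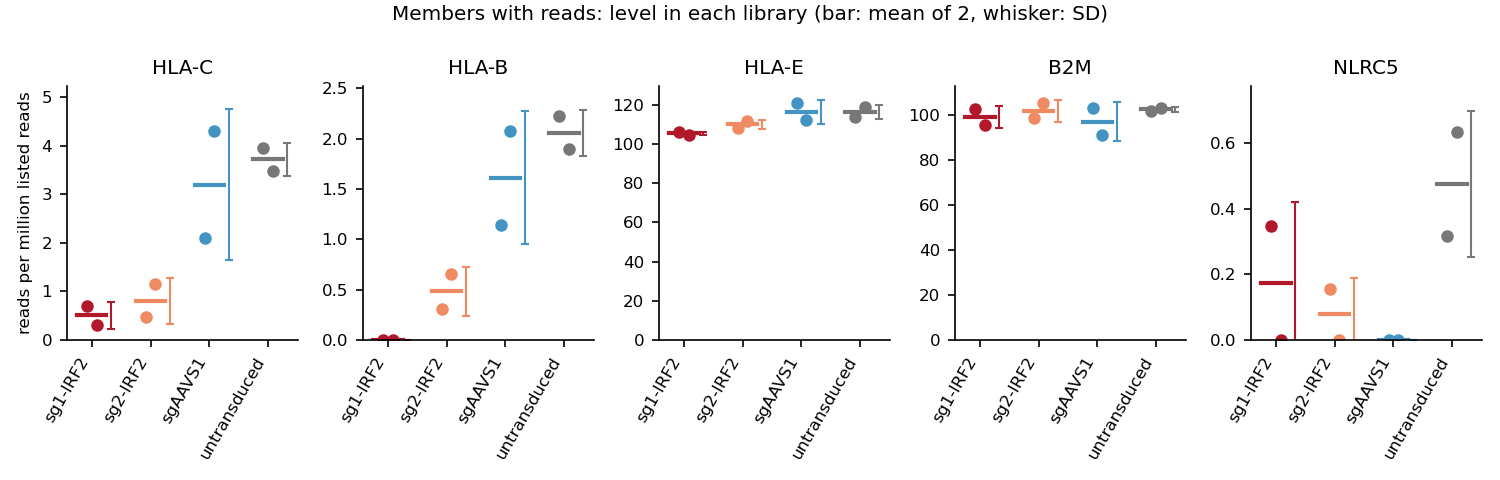
Level in RPM (vertical axis, from 0) of the 5 members with reads, in each library of the 4 groups; points are libraries, bars the mean of 2 and whiskers the SD, cut off at 0. HLA-C and HLA-B were lower in all 4 IRF2-guide libraries than in all 4 control libraries, HLA-E lay between 104.8 and 120.8, B2M between 91.0 and 105.2, and NLRC5 never exceeded 4 reads.

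The HLA-C row cannot be read as HLA-C alone. In the deposited table (hg38) the row runs on the minus strand of chromosome 6 from 31268749 to 31357158, a span of 88410 bases, whereas the longest coding HLA-C transcript of GENCODE release 29 covers 3338 bases. The HLA-B row, on the same strand from 31353872 to 31357188, shares 3287 bases with it, 99.1% of the HLA-B span. The table itself lists an HLA-C transcript as the feature that overlaps HLA-B. Whether a read in the shared stretch was counted for both rows is not stated in the sources used here. In every one of the 8 libraries the HLA-B row had at most as many reads as the HLA-C row, and over all libraries 52 reads stood in the HLA-B row and 103 in the HLA-C row. In 8 other pairs of genes, at least 95% of the exonic bases of one lay inside exons of another on the same strand. Inner genes had a mean of at least 20 reads. The outer gene had at least as many reads as the inner gene in all 8 libraries for 7 pairs. In the remaining pair the outer gene TMEFF1 had fewer reads than the inner MSANTD3-TMEFF1 in every library (408 against 503 in sum). Outer genes were required to have more exonic bases, and 1 pair went the other way, so these pairs cannot decide whether shared reads were counted for both rows.

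HLA-B itself had 0 and 0 reads in sg1-IRF2 cells, 2 and 4 reads in sg2-IRF2 cells, against 6 and 14 reads with sgAAVS1 and 14 and 12 reads in untransduced cells. No IRF2-guide library reached the lowest control library. Its mean deposited log2 value of -0.37 lay under the minimum of 0 for the test. With sg1-IRF2, HLA-B had 0 reads over the group, against 20 with sgAAVS1. Scaled to library size, that was 6.75-fold lower when 3 reads over the group are taken as the floor. This value leaves out the counting error of the 20 reads and is no strict bound. With sg2-IRF2 the ratio to sgAAVS1 was 0.286 (95% counting interval 0.0941 to 0.739). When HLA-B was kept in the fit in spite of the minimum, a choice made after its values were seen, the log2 difference of both guides from sgAAVS1 was -2.59 ± 0.59 (SE, limma, adjusted p = 0.016), -3.34 ± 0.68 for sg1-IRF2 alone (adjusted p = 0.0069) and -1.85 ± 0.68 for sg2-IRF2 alone (adjusted p = 0.091). The sg1-IRF2 value depends on how a count of 0 is listed and is no bound.

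If every HLA-B read was also counted in the HLA-C row, the reads left to HLA-C are 4 and 2 in sg1-IRF2 cells, 1 and 3 in sg2-IRF2 cells, against 5 and 15 with sgAAVS1 and 11 and 10 in untransduced cells. The 4 IRF2-guide libraries then still lie below the control libraries. Over the groups that is 10 reads with the IRF2 guides against 20 with sgAAVS1, a scaled ratio of 0.243 (95% counting interval 0.101 to 0.543). In the fit the log2 difference was -2.04 ± 0.60 and no longer passed (limma, adjusted p = 0.104). With sg1-IRF2 alone it was -1.61 ± 0.70 (adjusted p = 0.567), and with sg2-IRF2 alone -2.47 ± 0.70, which was still called (adjusted p = 0.027). Against untransduced cells it was -2.20 (adjusted p = 0.0476).

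**Figure D2:**
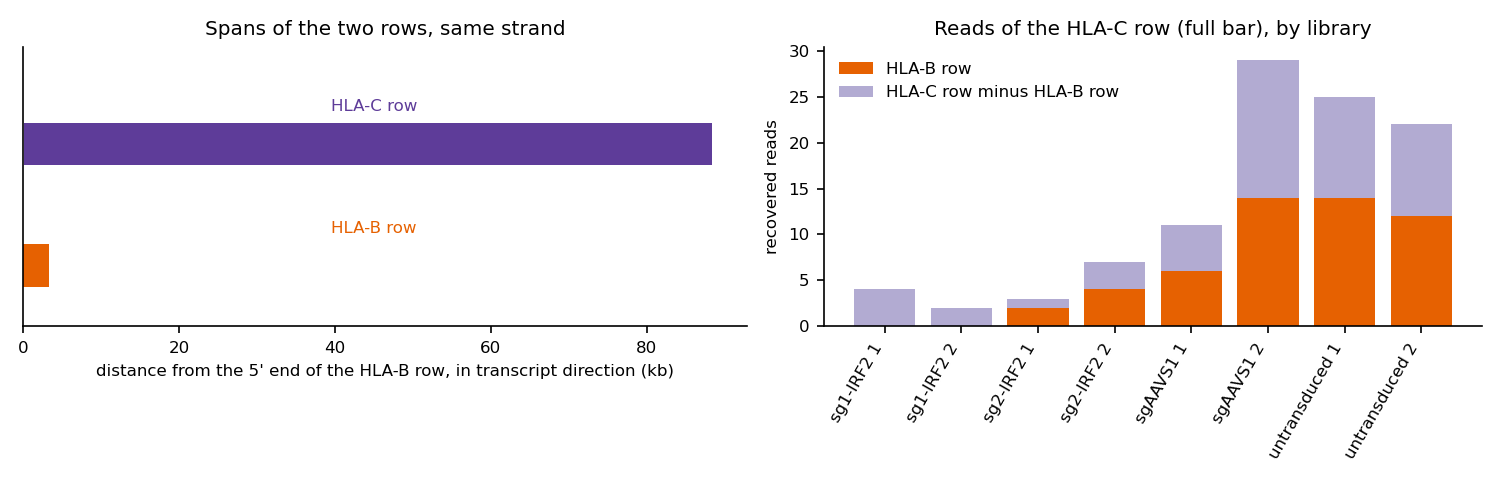
Left, the spans of the HLA-C and HLA-B rows of the deposited table, as distance in kilobases from the 5′ end of the HLA-B row in the direction of transcription. Right, the recovered reads of the HLA-C row in each library, divided into as many reads as the HLA-B row had and the remainder; the IRF2-guide libraries had 2 to 7 reads in the HLA-C row and the control libraries 11 to 29.

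HLA-E was the most read heavy chain and did not pass the test in any of the 6 comparisons. It had 106.1 and 104.8 RPM in sg1-IRF2 cells, 108.4 and 111.7 in sg2-IRF2 cells, against 120.8 and 112.2 with sgAAVS1 and 113.8 and 118.8 in untransduced cells. The IRF2-guide libraries were the 4 lowest of the 8, with 111.7 and 112.2 as the nearest pair. The log2 difference of both guides from sgAAVS1 was -0.13 ± 0.05 (SE, 95% interval -0.23 to -0.03, limma, adjusted p = 0.265, unadjusted p = 0.013). For sg1-IRF2 alone it was -0.11 ± 0.06 (adjusted p = 0.693), for sg2-IRF2 alone -0.15 ± 0.06 (adjusted p = 0.0979), and for both guides against untransduced cells -0.10 ± 0.05 (adjusted p = 0.374). Without the second sgAAVS1 library the value for both guides was -0.20 (adjusted p = 0.032), and without the first it was -0.07 (adjusted p = 0.625), so the control library chosen decides whether HLA-E passes. The 610 to 756 reads per library make the interval narrow, and a fall of the size seen for HLA-C lies outside it.

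B2M, which stabilises every class I heavy chain at the cell surface, had 102.6 and 95.7 RPM in sg1-IRF2 cells, 98.4 and 105.2 in sg2-IRF2 cells, against 103.1 and 91.0 with sgAAVS1 and 101.7 and 103.2 in untransduced cells. The groups overlapped. The log2 difference of both guides from sgAAVS1 was 0.03 ± 0.06 (SE, 95% interval -0.08 to 0.15, limma, adjusted p = 0.901), and it was 0.07 ± 0.06 with sg1-IRF2 and -0.0002 ± 0.06 with sg2-IRF2. Against untransduced cells it was -0.02 ± 0.06 (adjusted p = 0.939). A miss of the threshold does not show that B2M was the same in all groups, but a change of more than 0.15 in either direction lies outside the interval of the main comparison.

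NLRC5, the class I transactivator, had 9 reads in all. These were 2 and 0 in sg1-IRF2 cells, 1 and 0 in sg2-IRF2 cells, against 0 and 0 with sgAAVS1 and 2 and 4 in untransduced cells. The libraries with an IRF2 guide overlapped those of both control groups. Both guides together stood at 0.255 of untransduced cells (95% counting interval 0.0413 to 1.20). With 3 reads over the group as the floor, sgAAVS1 was 1.90-fold lower than untransduced cells. This value leaves out the counting error of the 6 untransduced reads and is no strict bound. No fold is given against sgAAVS1, since neither side exceeded 3 reads. NLRC5 lay under the minimum for the test. A fit without that minimum did not call it for both guides against sgAAVS1 (limma, adjusted p = 0.791), but called it against untransduced cells for both guides (-1.28 ± 0.33, adjusted p = 0.0087) and for sgAAVS1 (-1.54 ± 0.38, adjusted p = 0.0038). These values rest on how a count of 0 is listed, and the counting interval for both guides against untransduced cells includes 1. CIITA, the transactivator of MHC class II genes and a relative of NLRC5, named after its values were seen, had at most 1 read in each IRF2-guide library and 1 to 6 reads in the control libraries.

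HLA-F and HLA-G had 0 reads in all 8 libraries. A count of 0 allows up to 3 reads, or 0.445 to 0.572 RPM in a single library and 0.0608 over the 8 together. The row of HLA-F-AS1, a noncoding RNA on the opposite strand, did hold reads, but whether these lay within the HLA-F span was not examined. That row had 45 and 56 reads in sg1-IRF2 cells, 82 and 68 in sg2-IRF2 cells, 64 and 70 in sgAAVS1 cells and 64 and 77 in untransduced cells. HLA-F-AS1 did not pass in the main comparison (log2 difference -0.20 ± 0.14, adjusted p = 0.688).

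**Figure D3:**
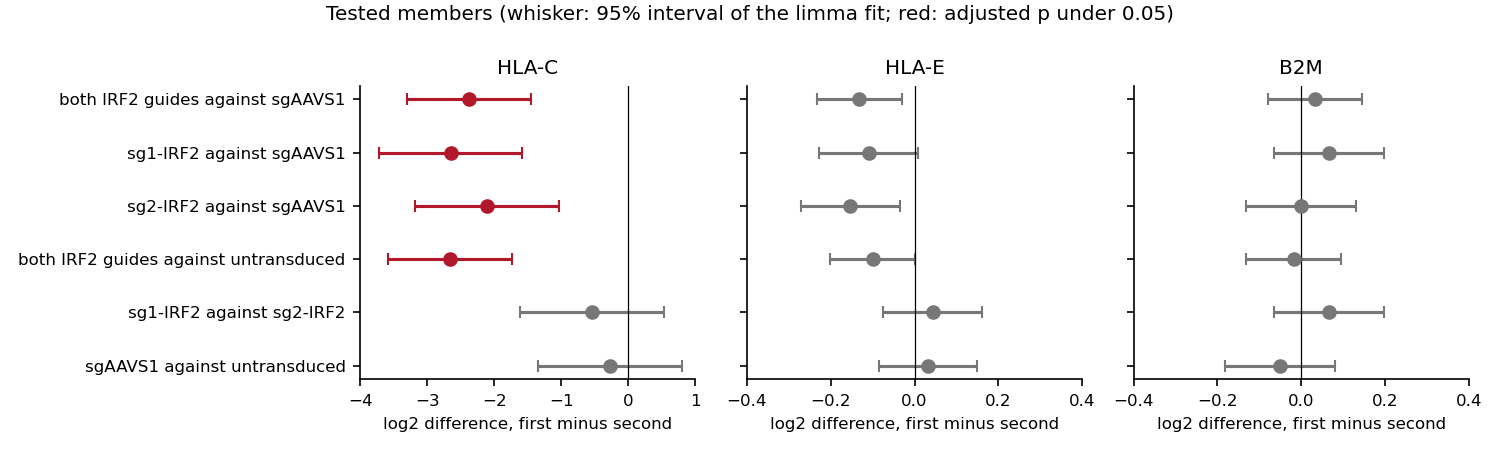
Log2 difference of the 3 tested members in 6 comparisons, with the first-named group minus the second; whiskers are 95% intervals of the limma fit and red marks an adjusted p under 0.05. HLA-C was called in the 4 comparisons of IRF2 guides with controls, from -2.66 to -2.11, while HLA-E lay between -0.15 and 0.04 and B2M between -0.05 and 0.07; the horizontal scale of HLA-C is wider than that of the other panels.

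The guides were also set against each other, since sg1-IRF2 left fewer IRF2 reads than sg2-IRF2. None of the 3 tested members was called, and 0 had an unadjusted p under 0.05, in a comparison that called 13.3% of all tested genes (limma). That share is 1952 genes, and it depends on scaling, with 231 called once library medians are aligned. The log2 difference of sg1-IRF2 from sg2-IRF2 was -0.54 ± 0.52 for HLA-C (SE, 95% interval -1.61 to 0.53, adjusted p = 0.490), 0.04 ± 0.06 for HLA-E and 0.07 ± 0.06 for B2M. The median of all tested genes was 0.11 there, and with library medians aligned HLA-E was at -0.07 and B2M at -0.05. HLA-B had 0 reads over the sg1-IRF2 libraries and 6 over those with sg2-IRF2. With 3 reads as the floor that was 1.93-fold lower with sg1-IRF2, leaving out the counting error of the 6 reads. The reads left to HLA-C without those of HLA-B were 6 with sg1-IRF2 and 4 with sg2-IRF2, so the order of the guides turns with the way these reads are counted.

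Between the control guide and untransduced cells, none of the 3 tested members was called, 0 had an unadjusted p under 0.05, and 4.75% of all tested genes were called (limma). The log2 difference of sgAAVS1 from untransduced cells was -0.28 ± 0.52 for HLA-C (SE, 95% interval -1.35 to 0.79), 0.03 ± 0.06 for HLA-E and -0.05 ± 0.06 for B2M. HLA-B had 20 reads with sgAAVS1 and 26 in untransduced cells, a scaled ratio of 0.810 (95% counting interval 0.429 to 1.51). NLRC5, with 0 reads against 6, is described above. In the order untransduced, sgAAVS1, sg2-IRF2 and sg1-IRF2, from the highest to the lowest HLA-C level, neither the control pair nor the guide pair differed beyond its spread.

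Summed over the HLA members, with HLA-B counted once inside HLA-C, the libraries held 106.8 and 105.1 RPM in sg1-IRF2 cells, 108.8 and 112.9 in sg2-IRF2 cells, against 122.9 and 116.5 with sgAAVS1 and 117.7 and 122.3 in untransduced cells. The IRF2-guide libraries were the 4 lowest. Their 95% counting intervals lay within 97.3 to 121.6, and those of the control libraries within 108.5 to 132.8. The interval of the second sg1-IRF2 library (97.3 to 113.3) lay below that of the first sgAAVS1 library (113.6 to 132.8). It also lay below that of the second untransduced library (113.8 to 131.2). Every other pair of an IRF2-guide and a control library had overlapping intervals. Of the 1286 reads in this sum with sg1-IRF2 HLA-E gave 1280, and of the 1515 in untransduced cells it gave 1468. The sum is thus mostly a reading of HLA-E.

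The promoter windows of the members differ in the element that interferon regulatory factors bind, and are shown for that reason. RefSeq (GRCh38.p14) windows of 250 bases before to 50 bases after the start site matched 5 of the 7 members by symbol, with 3 windows for HLA-G. The windows below are those of HLA-C (chr6:31272043-31272342, minus strand), HLA-B (chr6:31357130-31357429, minus strand), B2M (chr15:44711267-44711566, plus strand) and HLA-F (chr6:29723184-29723483, plus strand), written 5′ to 3′ along the gene. Capitals mark matches, on either strand, to the interferon-stimulated response element, searched as a repeated GAAA with 2 free bases between the copies, or to its core AANNGAAA, which lies inside it.
HLA-C: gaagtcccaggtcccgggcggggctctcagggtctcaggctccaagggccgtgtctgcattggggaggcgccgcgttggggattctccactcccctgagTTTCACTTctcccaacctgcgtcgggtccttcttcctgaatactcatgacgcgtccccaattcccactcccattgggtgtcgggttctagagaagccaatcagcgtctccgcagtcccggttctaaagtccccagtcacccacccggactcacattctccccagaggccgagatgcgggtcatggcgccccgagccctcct
HLA-B: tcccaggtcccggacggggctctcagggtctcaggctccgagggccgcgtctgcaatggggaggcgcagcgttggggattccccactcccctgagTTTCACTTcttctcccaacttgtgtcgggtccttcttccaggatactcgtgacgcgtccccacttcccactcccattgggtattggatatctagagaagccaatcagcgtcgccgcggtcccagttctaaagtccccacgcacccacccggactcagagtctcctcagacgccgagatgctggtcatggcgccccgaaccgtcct
B2M: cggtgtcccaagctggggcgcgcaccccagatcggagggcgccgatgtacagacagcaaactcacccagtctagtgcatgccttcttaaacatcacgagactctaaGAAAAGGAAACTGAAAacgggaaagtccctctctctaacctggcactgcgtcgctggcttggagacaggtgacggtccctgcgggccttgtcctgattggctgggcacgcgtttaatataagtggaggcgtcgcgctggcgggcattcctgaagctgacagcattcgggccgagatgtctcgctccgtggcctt
HLA-F: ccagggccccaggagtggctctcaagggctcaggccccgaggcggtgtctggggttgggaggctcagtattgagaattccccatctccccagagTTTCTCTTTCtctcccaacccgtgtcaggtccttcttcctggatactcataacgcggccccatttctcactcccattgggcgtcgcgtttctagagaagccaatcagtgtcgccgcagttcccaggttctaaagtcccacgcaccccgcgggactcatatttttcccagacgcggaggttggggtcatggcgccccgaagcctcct

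The full element occurred in the windows of B2M, as overlapping matches that begin at -144 and -138 from the start site, and of HLA-F, at -156. It is found in 3.57% of all 35116 promoter windows. HLA-C at -151 and HLA-B at -155 held the core AANNGAAA alone, read on the other strand as TTTCACTT, a match that 22.8% of all windows share. None of the 3 HLA-G windows held either. Between the IRF2 guides and sgAAVS1, B2M, with the full element, differed by 0.03 in log2. The HLA-C row begins inside the HLA-B window, so its difference of -2.38 (-2.04 and not called with HLA-B reads taken out) cannot be assigned to the HLA-C window. TAP1, a subunit of the peptide transporter, had a log2 difference from sgAAVS1 of -3.28 ± 0.26 with the IRF2 guides. It held overlapping full matches at -134 and -128 in the window chr6:32853655-32853954. Its other window, chr6:32852712-32853011, held neither the full element nor the core. TAP1 was picked with earlier results of these data known, and no other gene outside the members was looked up. A part of the element in these differences was not tested.

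Other class I promoter elements were searched in the same windows on both strands. The NF-kB element, searched as GGGA and CC with 4 free bases between them and found in 25.6% of all windows, occurred in HLA-C, HLA-B, B2M and 1 HLA-G window but not in that of HLA-F. TGACG, the core of the X2 box and found in 24.6% of windows, occurred at -105 in HLA-C, -106 in HLA-B and -75 in B2M and in no window of HLA-F or HLA-G. CCAAT, the core of the Y box and found in 34.6% of windows, occurred in all 5 genes. A match describes the letters and is no evidence of binding, and the alleles of K562 need not have the letters of the reference.

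**Figure D4:**
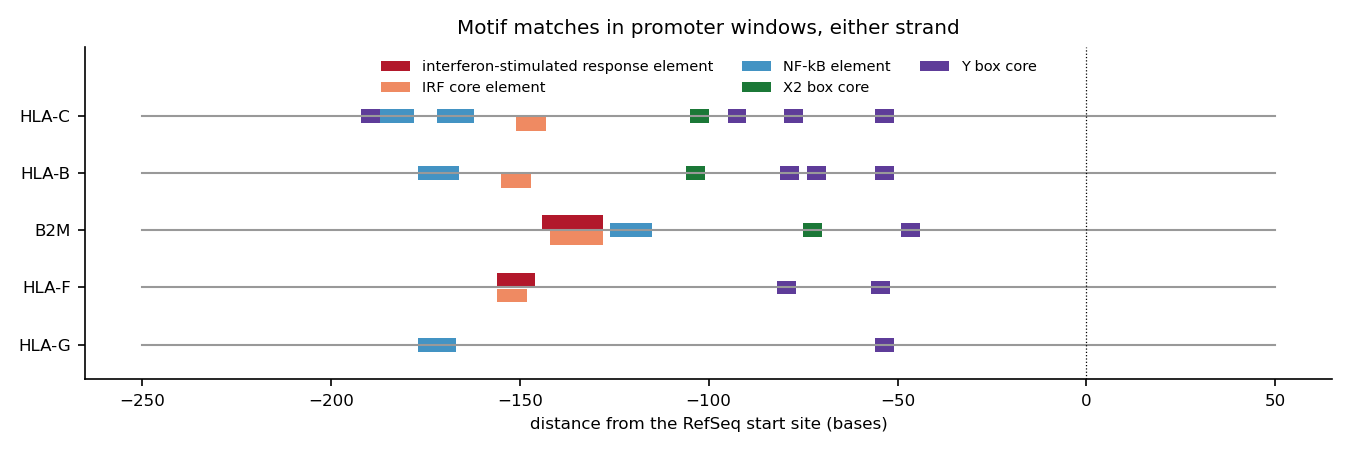
Matches to 5 motifs on either strand in the promoter windows of HLA-C, HLA-B, B2M, HLA-F and HLA-G (the HLA-G window nearest its coding start), by distance in bases from the RefSeq start site. The full interferon-stimulated response element is present in B2M and HLA-F, only its core in HLA-C and HLA-B, and neither in HLA-G.

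Similar sequence is a further limit for the HLA rows. The longest coding transcripts of HLA-B and HLA-C are 91.3% identical over 1555 aligned bases, and their promoter windows are 89.7% identical, while the other pairs of HLA members lie between 78.3% and 86.1% by transcript. An exact stretch of 50 bases is shared with a transcript of another gene at 6.71% of positions in HLA-C, 5.13% in HLA-E, 4.38% in HLA-G, 2.54% in HLA-B and 1.70% in HLA-F, and at none in B2M and NLRC5. At 100 bases this falls to 0.275% in HLA-C, 0.600% in HLA-E and 1.01% in HLA-G, and to 0 in HLA-B and HLA-F. The sources used here state neither the read length nor the treatment of reads with several matches. How reads of K562 alleles aligned to the reference was not tested.

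Some of the genes that supply and load peptides fell with the IRF2 guides. Of 19 listed genes for peptide loading and the proteasome 16 were tested, of which 7 were called lower and 0 higher in the main comparison, where 1.1% of all tested genes were called lower. The list had a median log2 difference of -0.11 beside -0.02 for all tested genes. The list was chosen with earlier results of these data known. The called genes were the transporter subunits TAP1 and TAP2 (-2.19 ± 0.09), the trimming peptidases ERAP2 (-3.70 ± 0.28) and ERAP1 (-1.43 ± 0.07), the loading factor tapasin, TAPBP (-0.41 ± 0.04), the proteasome activator subunit PSME1 (-1.10 ± 0.09) and the immunoproteasome subunit PSMB10 (-0.59 ± 0.12). Among those not called, the chaperones CANX and CALR differed by -0.05 ± 0.04 and by less than 0.01. Of the 3 genes under the minimum, named after their values were seen, the immunoproteasome subunit PSMB8 had 0 reads in all 4 IRF2-guide libraries, against 10 and 7 with sgAAVS1 and 8 and 15 in untransduced cells.

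Of the factors that act at class I promoters none passed in the main comparison. Of 18 tested genes of that list 0 were called in the main comparison (limma, 4 at an unadjusted p under 0.05), with a median of -0.01. STAT2, a subunit of the interferon-activated complex ISGF3, differed by 0.10 ± 0.04 and RELA, an NF-kB subunit, by -0.06 ± 0.05. RFX5, the X box factor that anchors NLRC5, named after its values were seen, differed by -0.18 ± 0.06 (adjusted p = 0.178). With sg2-IRF2 alone against sgAAVS1, NFKB1 (-0.32 ± 0.09) and RFX5 (-0.22 ± 0.07) were called lower. Of the 12 genes of the polycomb repressor PRC2 and other chromatin regulators 0 were called (0 at an unadjusted p under 0.05), with the methyltransferase gene EZH2 at 0.03 ± 0.05 and DNMT1 at -0.05 ± 0.04.

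Genes beside the members on their chromosomes were not called in the main comparison either. Of 48 listed neighbours 35 were tested, with 0 called in the main comparison (limma, 1 at an unadjusted p under 0.05) and log2 differences from -0.33 to 0.11. MDC1 and TUBB, the most abundant of these, differed by -0.02 ± 0.04 and -0.07 ± 0.04. Of the same 35 neighbours 4 were called lower with sg2-IRF2 against sgAAVS1, 0 with sg1-IRF2 against sgAAVS1, 2 higher for both guides against untransduced cells, and 7 higher with sg1-IRF2 than with sg2-IRF2. Of 8 tested class I-like genes 1 was called, MR1, which presents vitamin B metabolites (-0.32 ± 0.07, limma, adjusted p = 0.021). With sg1-IRF2 alone against sgAAVS1, 0 of these 8 genes were called, MR1 included, and with sg2-IRF2 alone 2 were called lower. The stress ligands MICB and MICA differed by -0.05 ± 0.06 and 0.01 ± 0.08.

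Of 24 listed class I pseudogenes and antisense RNAs 7 were in the table and 3 were tested. HCG18, a noncoding RNA, was called lower (-0.30 ± 0.05, adjusted p = 4.6e-04), but it was called higher in sgAAVS1 than in untransduced cells (0.40 ± 0.06) and was not called with both guides against untransduced cells (0.10 ± 0.05). HCG27 differed by 0.28 ± 0.13 and was not called. Of 12 MHC class II genes only HLA-DMA was tested (-0.13 ± 0.37, not called), and 7 of the 12 had no read in any library. Under the minimum, and named after their values were seen, HLA-DOB had 2 and 2 reads in sg1-IRF2 cells, 3 and 3 in sg2-IRF2 cells, against 13 and 11 with sgAAVS1 and 10 and 6 in untransduced cells. CD74, the class II invariant chain gene, had 3 and 4 reads in sg1-IRF2 cells, 3 and 1 in sg2-IRF2 cells, against 5 and 21 with sgAAVS1 and 10 and 10 in untransduced cells. In both, every IRF2-guide library lay below every control library.

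**Figure D5:**
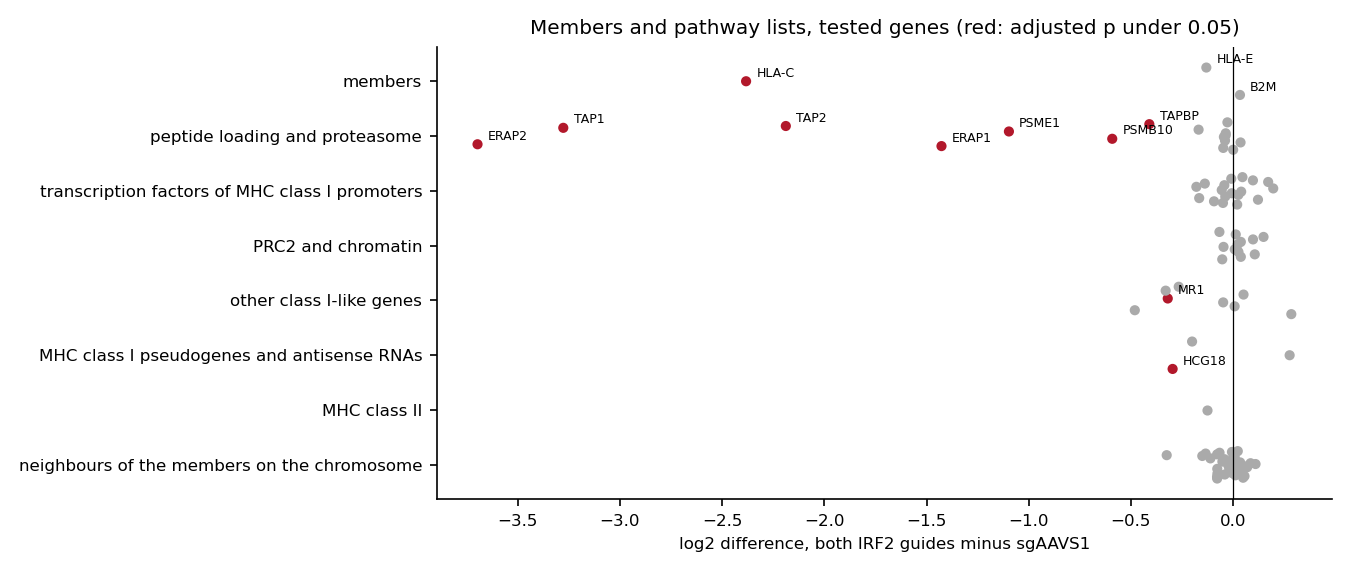
Log2 difference of both IRF2 guides from sgAAVS1 for the tested genes of the members and of 7 pathway lists; each point is a gene, and red marks an adjusted p under 0.05. The called genes of the peptide loading list lie between -3.70 and -0.41, with HLA-C at -2.38, while the promoter factors, the PRC2 list and the neighbours hold no called gene.

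The genes most like HLA-C over the 8 libraries, by Pearson r of the deposited log2 values, were FLT3LG (r = 0.974), GSDMD (0.956), RBM43 (0.945), SP5 (0.944) and PARP10 (0.943). Of these FLT3LG, a growth factor gene, differed by -2.12 ± 0.29 in the main comparison, GSDMD, which encodes a pore-forming protein, by -0.81 ± 0.19, RBM43 by -0.59 ± 0.07 and PARP10 by -1.30 ± 0.27, all called, while SP5 differed by -0.75 ± 0.44 and was not. For B2M the most alike genes were MCL1 (r = 0.977), COPB1 (0.974), CD3D (0.973), SCARNA2 (0.972) and RAD21 (0.971), none of them called. For NLRC5 they were KIAA1919, BBS7, TMEM242, SH3TC1 and RAB11FIP1 (r from 0.939 to 0.985), but with 9 reads behind NLRC5 such a correlation is no finding. The libraries share their depth and their groups, so these values describe likeness only.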

How the data were processed

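Per the submitters' processing notes, cutadapt, Bowtie2 and the hg38 build were used; the sources used here state no versions, counting tool, strand setting or annotation. Per the labels' protocols, DNase-treated total RNA was freed of ribosomal RNA before directional library preparation. The authors deposited log2 values of reads per gene over 1 factor per library, with replicates kept apart; all values above the floor were whole multiples of 1 read (tolerance 0.01), and genes without reads were listed at 0.9 read. Whole reads were recovered from them for depth, levels and counting intervals, which cover counting error only.

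Group means were fitted to the deposited log2 values of all 8 libraries (limma 3.58.1 in R 4.3.3, eBayes with trend, 4 residual and 22.4 prior degrees of freedom). Genes with a mean log2 of at least 0 were tested (14665), two-sided, with Benjamini-Hochberg adjustment over all of them, and an adjusted p under 0.05 was called. The fit was tested on simulated data in which only genes with a mean log2 of at least 2 were changed. HLA-C, with a mean of 0.67, lay below that level, so the simulation did not cover it. Intervals of ratios are exact at 95%. Python 3.11.15, numpy 2.4.6, pandas 2.3.3, scipy 1.17.1, Biopython 1.88 and matplotlib 3.10.9 did the rest.

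The chi-square between the replicates of a group, per degree of freedom, was 0.781 with sg1-IRF2, 0.658 with sg2-IRF2, 1.65 with sgAAVS1 and 0.821 in untransduced cells, so in 3 groups the libraries differed by less than the sampling noise. They were kept as 2 libraries, and an alternative averaged each such pair to 1 sample.

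The members and lists were chosen with earlier results of these data known. Named beside the members are the called genes of each list (up to 8, by lowest p), up to 2 uncalled genes of highest mean level, and the 5 genes most like HLA-C, B2M and NLRC5. Alternatives changed the test, normalization, filter, weights and libraries.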

Additional observations from a re-analysis of the deposited data

How the results depend on the processing

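In the main comparison 1 member was called. That count was 0 without the mean-variance trend, with a minimum mean log2 of 2 (which removes HLA-C from the test) and with HLA-B reads taken out of HLA-C, and 2 without a filter and with members kept past the filter, where HLA-B joined. The last 2 choices about HLA-B, and averaging the replicates that agree within sampling noise (HLA-C adjusted p = 1.9e-04, with the sgAAVS1 pair as the source of all spread and the lone samples assumed to vary like it), were made after seeing the data. For sg1-IRF2 against sgAAVS1 the same settings gave 0, 0, 0, 2 and 2. For sg2-IRF2 against sgAAVS1 the count was 0 without the trend, without a filter and with the minimum of 2. For both guides against untransduced cells it was 0 without the trend and with the minimum of 2, 3 without a filter (HLA-C, HLA-B and NLRC5) and 2 with members kept. For sgAAVS1 against untransduced cells it was 1 without a filter (NLRC5, on 6 reads). Leaving out 1 library gave counts from 0 to 1 for sg1-IRF2 and for sg2-IRF2 against sgAAVS1 and for both guides against untransduced cells. It gave 1 in the main comparison, though without the second sgAAVS1 library the called member was HLA-E and not HLA-C.

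The number of all genes called moved more. For sg1-IRF2 against sg2-IRF2, 1952 genes became 2 without the trend, 20 with averaged replicates, 4047 with those groups alone and 115 to 3628 with 1 library left out, beside 230 with voom. For sg2-IRF2 against sgAAVS1, 1196 became 57, 122, 536 and 238 to 1919, and in the main comparison 233 became 60, 106, 168 and 144 to 429.

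Uncalled differences near 0 changed sign. For sg1-IRF2 against sg2-IRF2, voom, aligned medians and quantile normalization gave -0.061, -0.069 and -0.065 for HLA-E and -0.039, -0.045 and -0.041 for B2M, and taking out HLA-B reads gave 0.86 for HLA-C. For sg2-IRF2 against sgAAVS1 they gave 0.079, 0.077 and 0.070 for B2M, and voom gave -0.0027 for HLA-E between sgAAVS1 and untransduced cells. With 1 library left out, B2M ran from -0.068 to 0.13 in the main comparison, -0.035 to 0.17 with sg1-IRF2, -0.10 to 0.10 with sg2-IRF2, -0.050 to 0.014 for both guides against untransduced cells and -0.15 to 0.050 for sgAAVS1 against untransduced cells. HLA-C ran from -1.19 to 0.11 between the guides and from -0.79 to 0.23 between the controls, where HLA-E ran from -0.032 to 0.096. The cause was not tested.

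The labels share replicate numbers. Same-numbered libraries correlated from -0.079 to 0.216 over 12500 genes, with the highest value between sg1-IRF2 and sgAAVS1. Each group has 2 libraries, and in 3 groups these differed by less than the sampling noise. The correlations therefore cannot decide whether the numbers pair samples. With the replicate number as a block the main comparison called 1 member (HLA-C, adjusted p = 0.0109), and no call changed in any comparison. Adding HLA pseudogenes to the summed reads was not run, since they have no row to add.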
